A study of Bos taurus with 6 samples.

Results

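The miR-17-92 cluster is a group of 6 miRNA hairpins that lie next to each other and are cut from 1 primary transcript. Its 7 mature products in the files, both arms of mir-17 (bta-miR-17-5p and bta-miR-17-3p) with bta-miR-18a, bta-miR-19a, bta-miR-19b, bta-miR-20a and bta-miR-92a, were taken by name out of 755 mature bovine miRNA names, with the largest precursor row where a name had several. They were counted in granulosa cells, which line the ovarian follicle and nurse the oocyte, of Simmental heifers between 15 and 20 months old. All heifers had their cycle synchronised with a prostaglandin analogue and a GnRH analogue and were slaughtered on day 19 of the estrous cycle. There were 3 small RNA libraries from preovulatory dominant follicles (at least 12 mm across) and 3 from subordinate follicles (at most 11 mm across). RNA was pooled before library preparation to give biological triplicates. The same 5 heifers yielded 5 dominant and 76 subordinate follicles, and how these were divided among the pools is not given in the sources used here, so SDs and p-values measure only the spread between pools. In the RefSeq gene table of assembly ARS-UCD2.0 the hairpin genes follow one another without any other gene between them, in the order MIR17, MIR18A, MIR19A, MIR20A, MIR19B and MIR92A-1.

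A miRNA guides the silencing complex to messenger RNAs through its seed, the bases near its 5′ end, so that miRNAs with the same seed share many targets. The cluster holds 4 seed families, miR-17 (with miR-20a), miR-18, miR-19 (miR-19a and miR-19b) and miR-92. It is known for being transcribed under MYC and E2F factors in dividing cells, and for lowering the pro-apoptotic protein BIM. In general, granulosa cells of growing follicles divide, those of preovulatory follicles leave the cell cycle and differentiate, and those of most subordinate follicles undergo atresia. The follicles here were grouped by diameter, and division and atresia of their cells were not measured in these data.

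Counting each miRNA by its largest row only, library totals ranged from 190385 to 311842 reads (dominant) and from 306932 to 364125 reads (subordinate). Levels are given as CPM, which are reads scaled to a common library size with the TMM factors of edgeR, on which scale 3 reads are worth between 8.86 and 13.9 CPM. Wilson and Poisson intervals below cover counting error only. Intervals of log2 fold changes come from the standard errors of edgeR, which also include the spread between libraries. The marker lists used to look for other cells were summed per library. The 3 erythroid markers (bta-miR-451, bta-miR-144 and bta-miR-486) summed to 13091, 8247 and 1048 CPM in dominant replicates 1, 2 and 3 and to between 808 and 1530 CPM in subordinate follicles. Of these 3, 2 were called, both higher in dominant follicles, though the groups overlapped for each marker. The 2 arms of the endothelial bta-miR-126 summed to between 73.2 and 293 CPM in dominant and between 354 and 540 CPM in subordinate follicles. For the 5 stroma and theca markers the ranges were 17603 to 27823 and 21064 to 35751 CPM, and bta-miR-214 alone was called, lower in dominant follicles. For the leukocyte markers they were 1781 to 2699 and 1142 to 2439 CPM, with no call among the 5 of 6 tested. Of these markers, bta-miR-142-3p had 0 or 1 read everywhere. The other arm, bta-miR-142-5p, had 278, 118 and 63 reads in dominant and 142, 108 and 120 reads in subordinate follicles. The gonadal bta-miR-202 had 45241 ± 1632 and 13034 ± 1937 CPM (SD, n = 3 each).

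Most members of the cluster were less abundant in preovulatory dominant than in subordinate follicles, by amounts that differed between members. Of the 7 members, 4 passed the thresholds as lower in dominant follicles (bta-miR-92a, bta-miR-20a, bta-miR-17-5p and bta-miR-19a), none passed as higher, and bta-miR-19b, bta-miR-18a and bta-miR-17-3p did not pass. Among all 353 miRNAs tested, 9.63% passed as lower and 11.9% as higher, 21.5% in all. A call needed a 2-fold difference (1 on the log2 scale) together with a raw p no larger than 0.05 and an adjusted p no larger than 0.1 in the quasi-likelihood test of edgeR. For 5 members the groups did not overlap, with every dominant library below every subordinate one, which was the case for 18.4% of all miRNAs tested. The median log2 fold change was -1.23 over the 7 members and -0.20 over all miRNAs tested. The distance between these medians was -1.02 and ran from -1.44 to -0.77 with 1 library left out. When libraries were scaled by total count or by the reads mapped to the genome, the median of all miRNAs was -0.01 or 0.18 and that of the members -1.04 or -0.89. Under these scalings 3 and 2 members passed in place of 4, and lower calls made up 32.9 and 25.4% of all calls in place of 44.7%. In bulk RNA, fewer cells of a type and less RNA per cell cannot be told apart.

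**Figure D1:**
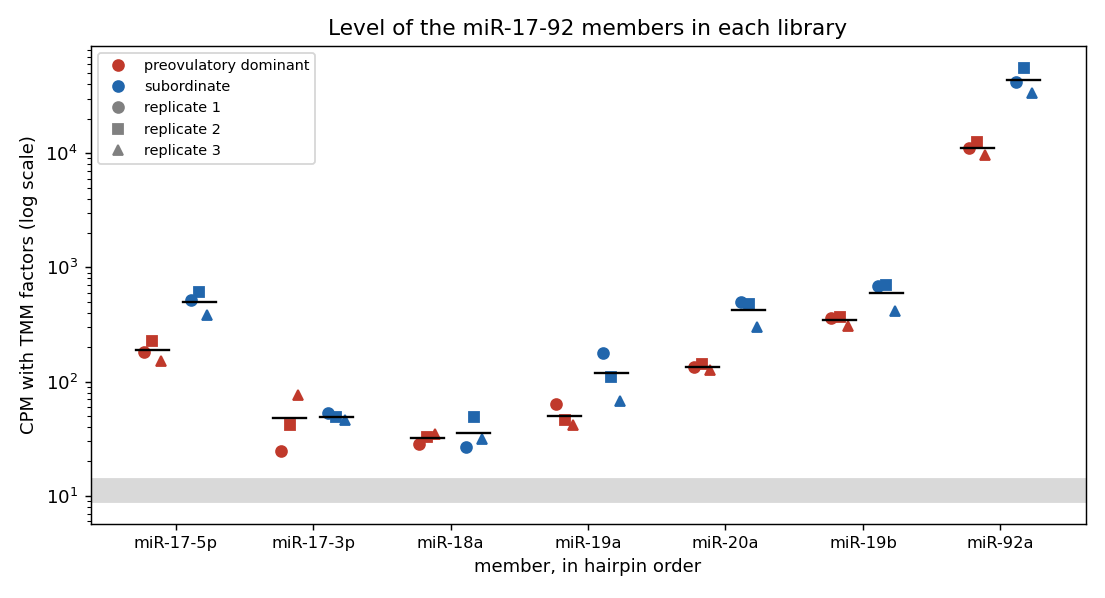
Level of each cluster member in the 3 libraries of preovulatory dominant (red) and the 3 of subordinate follicles (blue), in CPM on a log axis, with black bars for the group means and a grey band where 3 reads lie (8.86 to 13.9 CPM). The groups do not overlap for miR-17-5p, miR-19a, miR-20a, miR-19b and miR-92a, and they overlap for miR-17-3p and miR-18a.

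Bta-miR-92a, the product of the last hairpin, was by far the most abundant member. It had 3167, 2699 and 3049 reads in dominant replicates 1, 2 and 3 and 14140, 17352 and 9468 reads in subordinate replicates 1, 2 and 3. In raw reads, not scaled for library totals, the lowest subordinate library thus had about 3 times as many as the highest dominant one. On the normalized scale these were 11134 ± 1406 and 43765 ± 11489 CPM (SD, n = 3 each), which is -1.97 on the log2 scale (standard error 0.21, adjusted p = 0.00027, edgeR). Its mean level ranked 19th of the 353 miRNAs in dominant follicles and 3rd in subordinate follicles. It made up 1.20 ± 0.22% and 4.04 ± 0.87% of all miRNA reads (SD, n = 3 each). Leaving out 1 library gave log2 fold changes between -2.14 and -1.76, all called. The erythroid markers differed between the libraries, and their part in this result was not tested. Dominant replicate 3, in which they summed to 1048 CPM, within the range of subordinate follicles, had 9709 CPM of bta-miR-92a, and dominant replicates 1 and 2, with 13091 and 8247 CPM of them, had 11175 and 12519 CPM.

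Bta-miR-20a and bta-miR-17-5p carry the miR-17 seed, whose family is known to act on cell cycle inhibitors and TGF-beta receptors. Bta-miR-20a had 38, 31 and 40 reads in dominant and 169, 148 and 85 reads in subordinate follicles. This gave 135 ± 8.26 and 426 ± 110 CPM (SD, n = 3 each) with -1.66 as the log2 fold change (standard error 0.27, adjusted p = 0.00269, edgeR). Bta-miR-17-5p had 52, 49 and 48 reads in dominant and 176, 187 and 108 reads in subordinate follicles. Its levels were 188 ± 37.4 and 502 ± 113 CPM (SD, n = 3 each), with -1.42 as the log2 fold change (standard error 0.26, adjusted p = 0.00596, edgeR). Both were lower in each dominant library than in any subordinate library, and both kept their call with any 1 library left out. Scaled by the reads mapped to the genome, bta-miR-20a stayed called (-1.29), whereas bta-miR-17-5p had a log2 fold change of -1.003 and was no longer called (adjusted p = 0.16, edgeR).

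The 2 miR-19 members share the miR-19 seed. Bta-miR-19a had 18, 10 and 13 reads in dominant and 60, 34 and 19 reads in subordinate follicles, or 50.4 ± 11.6 and 118 ± 55.5 CPM (SD, n = 3 each). The groups did not overlap, but 19 reads against 18 show how close their nearest libraries were. On the log2 scale the difference was -1.23 (standard error 0.43, adjusted p = 0.0767, edgeR), and most single libraries decided its call. Without dominant replicate 1, 2 or 3 it was -1.43, -1.13 or -1.09, and without subordinate replicate 1 or 2 it was -0.81 or -1.28, none of them called (adjusted p between 0.124 and 0.267, edgeR). Without subordinate replicate 3 it was -1.50 and called. Bta-miR-19b had 102, 80 and 97 reads in dominant and 231, 215 and 117 reads in subordinate follicles. Its levels of 347 ± 33.2 and 597 ± 159 CPM (SD, n = 3 each) did not overlap either. The difference of -0.79 on the log2 scale (standard error 0.25, 95% interval -1.36 to -0.21, adjusted p = 0.0555, edgeR) stayed inside the fold threshold.

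No difference was detectable for the 2 least abundant members. Bta-miR-18a had 8, 7 and 11 reads in dominant and 9, 15 and 9 reads in subordinate follicles. At 31.9 ± 3.43 and 35.6 ± 11.5 CPM (SD, n = 3 each) it lay about 3 times above the level of 3 reads. The log2 fold change was -0.15 with a 95% interval from -1.13 to 0.82 (adjusted p = 0.812, edgeR), which leaves room for a 2-fold lower level. Bta-miR-17-3p, the arm of the mir-17 hairpin opposite to bta-miR-17-5p, had 7, 9 and 24 reads in dominant and 18, 15 and 13 reads in subordinate follicles. Dominant replicate 3 had the most reads of the 6 libraries. The exact Poisson interval of its 24 reads (15.4 to 35.7) lay above that of the 7 reads of replicate 1 (2.81 to 14.4). It overlapped that of the 9 reads of replicate 2 (4.12 to 17.1). These intervals are not scaled for library totals (259857, 190385 and 311842 reads), so they do not compare levels. In dominant replicates 1, 2 and 3 the levels were 24.7, 41.7 and 76.4 CPM. The log2 fold change was -0.03 (95% interval -1.10 to 1.03, adjusted p = 0.953, edgeR), and without dominant replicate 3 it was -0.61 (adjusted p = 0.329, edgeR). The sign of both values turned when libraries were scaled by total count (0.06 for bta-miR-18a and 0.15 for bta-miR-17-3p) or by the reads mapped to the genome (0.21 and 0.23).

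**Figure D2:**
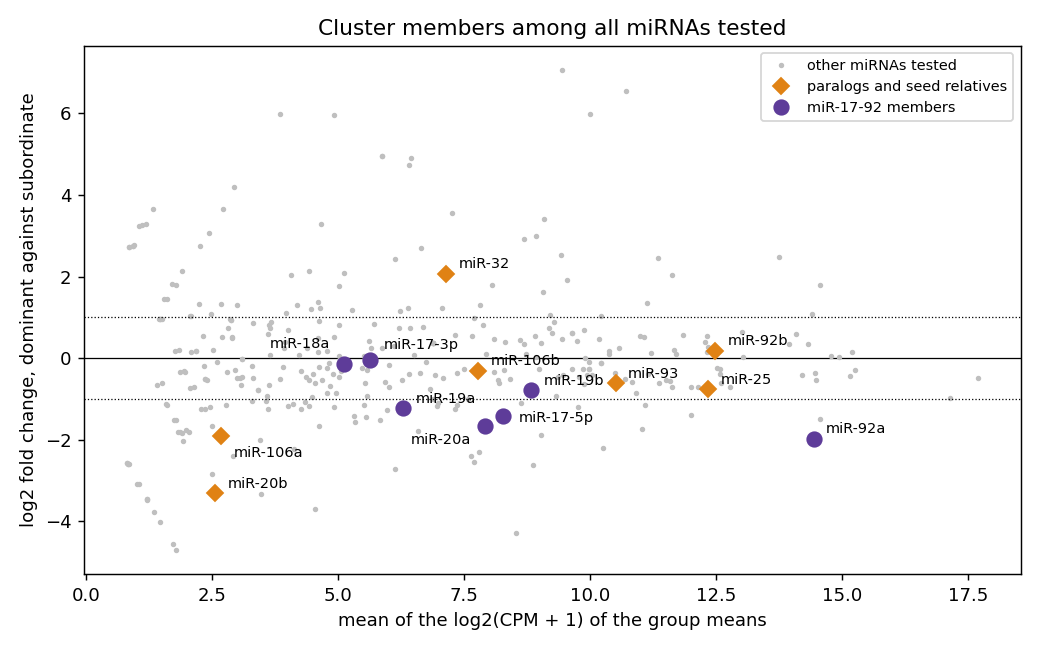
Log2 fold change of preovulatory dominant against subordinate follicles (vertical axis) against mean level (horizontal axis, log2 of CPM + 1) for the 353 miRNAs tested, 1 point each, with dotted lines at the fold threshold of 1. The 7 cluster members (purple) all lie below 0 here, from -0.03 for miR-17-3p to -1.97 for miR-92a, though miR-17-3p and miR-18a turn to above 0 by total count or mapped reads, and the 7 tested relatives (orange) lie on both sides.

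The spread between replicates differed from member to member. In dominant follicles the SD of the raw counts, not scaled for library totals, was at or below counting error for several members. It was 2.08 reads for bta-miR-17-5p, where counting error alone gives 7.05. Totals differed between these libraries (259857, 190385 and 311842 reads), so near-equal counts are not near-equal levels. In CPM bta-miR-17-5p was 183, 227 and 153 in dominant replicates 1, 2 and 3. For bta-miR-20a the SD of the raw counts was 4.73 reads, where counting alone gives 6.03. In subordinate follicles the corresponding SDs were 42.8 and 43.7 reads, against 12.5 and 11.6 from counting, again not scaled for library totals. In CPM the spread of bta-miR-17-5p relative to its mean was similar in both groups (188 ± 37.4 in dominant and 502 ± 113 in subordinate follicles). That of bta-miR-20a was smaller in dominant follicles (135 ± 8.26 against 426 ± 110 CPM). For bta-miR-92a the SD of the raw counts exceeded counting error in both groups (243 against 54.5 reads in dominant and 3964 against 117 reads in subordinate follicles). For bta-miR-17-3p the SD was larger in dominant follicles (9.29 against 2.52 reads). Subordinate replicate 3 had the lowest CPM of its group for every member except bta-miR-18a.

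Within a group the members kept much the same order of level. In dominant follicles the order of mean CPM was bta-miR-92a, bta-miR-19b and bta-miR-17-5p, followed by bta-miR-20a, bta-miR-19a, bta-miR-17-3p and bta-miR-18a, and it was the same in subordinate follicles. Neighbours whose ranges overlapped in dominant follicles were bta-miR-19a with bta-miR-17-3p and bta-miR-17-3p with bta-miR-18a. In subordinate follicles they were bta-miR-19b with bta-miR-17-5p, bta-miR-17-5p with bta-miR-20a, and bta-miR-17-3p with bta-miR-18a. Within each single library, however, bta-miR-19b lay above bta-miR-17-5p and bta-miR-17-5p above bta-miR-20a in all 6 libraries. Adapter ligation and PCR favour some sequences over others, so that these levels are read proportions and not numbers of molecules.

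To ask whether products of 1 transcript kept their proportions, each member was divided by bta-miR-17-5p in the same library, which needs no normalization. The ratio to bta-miR-17-5p was lower in every dominant library for bta-miR-92a and higher in every dominant library for bta-miR-19b, bta-miR-18a and bta-miR-17-3p, while the groups overlapped for bta-miR-20a and bta-miR-19a. Bta-miR-17-5p itself had a log2 fold change of -1.42, against a median of -0.20 over all miRNAs tested. Any miRNA with an unchanged level thus has a higher ratio in dominant follicles. This holds for bta-miR-18a (-0.15) and bta-miR-17-3p (-0.03), whose higher ratios restate the fall of bta-miR-17-5p. Such ratios were not computed for miRNAs outside the cluster. The exact permutation test between 3 and 3 libraries cannot give a p below 0.1, so none of these 6 differences could pass 0.05.

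For bta-miR-92a the log2 ratio to bta-miR-17-5p was 5.91, 5.77 and 5.97 in dominant and 6.32, 6.53 and 6.45 in subordinate replicates 1, 2 and 3. These ratios correspond to 59.1 and 86.5 reads of bta-miR-92a per read of bta-miR-17-5p. The difference of -0.55 (standard error 0.09, exact permutation p = 0.1, two-sided, adjusted 0.15 over the 6 ratios) was about 5 times the SD within either group (0.11 and 0.10). For bta-miR-19b the log2 ratio was 0.97, 0.70 and 1.01 in dominant and 0.39, 0.20 and 0.12 in subordinate replicates. That is 1.86 against 1.18 reads per read of bta-miR-17-5p, a difference of 0.66 (standard error 0.13, exact permutation p = 0.1, adjusted 0.15).

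Bta-miR-18a stood at 0.18 reads per read of bta-miR-17-5p in dominant and 0.07 in subordinate follicles. Its log2 ratios averaged -2.48 ± 0.35 and -3.78 ± 0.38 (SD, n = 3 each; standard error of the difference 0.30, exact permutation p = 0.1, adjusted 0.15). The 2 arms of the mir-17 hairpin had log2 ratios of 3p to 5p of -2.81, -2.38 and -0.99 in dominant and -3.25, -3.60 and -3.01 in subordinate replicates. The 5p arm had more reads in all 6 libraries, and the difference between groups of 1.23 (standard error 0.58, exact permutation p = 0.1, adjusted 0.15) fell to 0.69 without dominant replicate 3. Few reads lie behind both ratios, between 7 and 24 of the rarer miRNA per library. The ratio of bta-miR-20a to bta-miR-17-5p, which share a seed, was 0.73 in dominant and 0.84 in subordinate follicles, a log2 difference of -0.21 (standard error 0.15, exact permutation p = 0.3, adjusted 0.36). For bta-miR-19a the log2 difference was 0.29 (standard error 0.37, exact permutation p = 0.5, adjusted 0.5). Within each same-numbered pair of libraries, however, the ratio of bta-miR-19a was higher in the dominant one (-1.50, -2.24 and -1.85 against -1.54, -2.44 and -2.48; exact sign-flip permutation p = 0.25, the smallest that 3 pairs can give).

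In shares of the reads of all 7 members, bta-miR-92a took 93.3 ± 0.34% in dominant and 96.2 ± 0.57% in subordinate follicles (SD, n = 3 each). The lowest share was 92.9% (Wilson 95% interval 92.0 to 93.7%) in dominant replicate 3, and the lowest in subordinate follicles was 95.5% (95.2 to 95.8%) in replicate 1. Bta-miR-19b took 2.91 ± 0.12 and 1.32 ± 0.21%, and bta-miR-17-5p 1.56 ± 0.12 and 1.11 ± 0.07% (SD, n = 3 each). Summed over the 7 members, the level was 11934 ± 1466 CPM in dominant and 45492 ± 11831 CPM in subordinate follicles, a 3.81-fold difference set almost entirely by bta-miR-92a. The other 6 members summed to 800 ± 60.6 and 1728 ± 424 CPM, a 2.16-fold difference. Among these 6, bta-miR-19b made up 43.3 ± 1.87% in dominant and 34.4 ± 0.93% in subordinate follicles, and bta-miR-20a 16.9 ± 0.25 and 24.6 ± 0.77% (SD, n = 3 each).

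**Figure D3:**
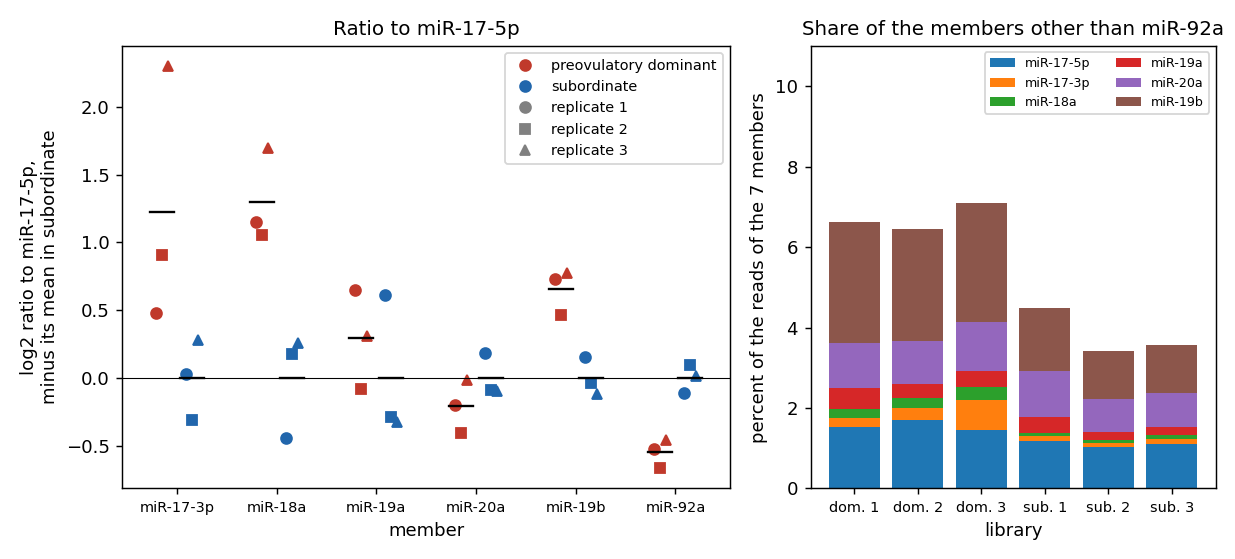
Left, log2 ratio of each member to miR-17-5p in the same library, minus the mean of that ratio in subordinate follicles, for dominant (red) and subordinate (blue) replicates with black bars for group means. Right, percent of the reads of the 7 members that belongs to each member other than miR-92a, in each library. The ratio of miR-92a is lower and those of miR-19b, miR-18a and miR-17-3p are higher in all dominant libraries, and the stacked shares are higher in dominant than in subordinate libraries. The level of miR-17-5p itself is lower in dominant libraries, which raises the ratio of any miRNA with an unchanged level.

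Bta-miR-19b and bta-miR-92a can each come from a second hairpin, mir-19b-2 and mir-92a-2, which lie in the paralogous miR-106a-363 cluster, so their reads cannot be assigned to miR-17-92 alone. For bta-miR-92a the mir-92a-2 row held 84.0 ± 0.16% of the count of the mir-92a-1 row in dominant and 86.4 ± 0.90% in subordinate follicles (SD, n = 3 each). The largest row therefore belonged to the hairpin of miR-17-92. For bta-miR-19b the rows were nearly equal, and that of mir-19b-2 was larger, at 101 ± 0.58% and 104 ± 1.90% of the mir-19b row. With the row of mir-19b in its place, the log2 fold change of bta-miR-19b was -0.74 and still not called. The other products of the paralogous cluster (bta-miR-106a, bta-miR-18b, bta-miR-20b and bta-miR-363) together had 1 read in each dominant library and 15, 7 and 4 reads in subordinate replicates 1, 2 and 3.

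The members share their seeds with relatives made elsewhere, and reads of such near-identical miRNAs (bta-miR-19a and bta-miR-19b, or bta-miR-106a and its kin, for example) can be split or shared in the counting. Of 9 listed relatives 7 could be tested, and 1 passed as lower (bta-miR-20b, with 0, 0 and 1 reads in dominant and 7, 6 and 2 in subordinate follicles) and 1 as higher (bta-miR-32). From the miR-106b-25 cluster, bta-miR-106b, bta-miR-93 and bta-miR-25 had log2 fold changes of -0.31, -0.62 and -0.76 (adjusted p = 0.451, 0.0414 and 0.0199, edgeR), all within the fold threshold. In the miR-92 seed family, bta-miR-92b had 6033 ± 684 CPM in dominant and 5329 ± 1549 CPM in subordinate follicles (SD, n = 3 each; log2 fold change 0.18, adjusted p = 0.586, edgeR). Bta-miR-32 had 287 ± 31.3 and 68.3 ± 13.2 CPM (log2 fold change 2.07, adjusted p = 0.000809, edgeR). Bta-miR-25, which also carries the seed of bta-miR-92a, had 3986 ± 485 and 6750 ± 1018 CPM and did not overlap between groups. The relatives with this seed thus went different ways, with bta-miR-32 called higher in dominant follicles, bta-miR-25 lower within the fold threshold and bta-miR-92b not called.

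Cluster members, with all reads of bta-miR-92a counted to them, made up a smaller share of the miR-17 and miR-92 seed families in every dominant library than in any subordinate library. These shares restate the fold changes given above and were added after values had been seen, so their p-values are not separate evidence. Bta-miR-92a made up 54.8, 53.0 and 47.8% of the reads of its seed family in dominant and 77.9, 79.1 and 77.3% in subordinate replicates. The nearest intervals (Wilson, 95%) were 53.6 to 56.1% in dominant replicate 1 and 76.6 to 78.0% in subordinate replicate 3. Averaged, the shares were 51.9 ± 3.63 and 78.1 ± 0.92% (SD, n = 3 each; exact permutation p = 0.1, the smallest possible). The miR-92 seed family as a whole had 21439 ± 1904 CPM in dominant and 55912 ± 14007 CPM in subordinate follicles. Bta-miR-17-5p and bta-miR-20a together made up 20.8, 20.3 and 16.3% of the reads of the miR-17 seed family in dominant and 32.7, 32.8 and 26.7% in subordinate replicates. These shares did not overlap (19.1 ± 2.47 against 30.7 ± 3.50%, SD, n = 3 each; exact permutation p = 0.1), and bta-miR-93 of the miR-106b-25 cluster was the most abundant member of that family in both groups. In the miR-18 family all reads belonged to bta-miR-18a, since bta-miR-18b had no read in any library.

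**Figure D4:**
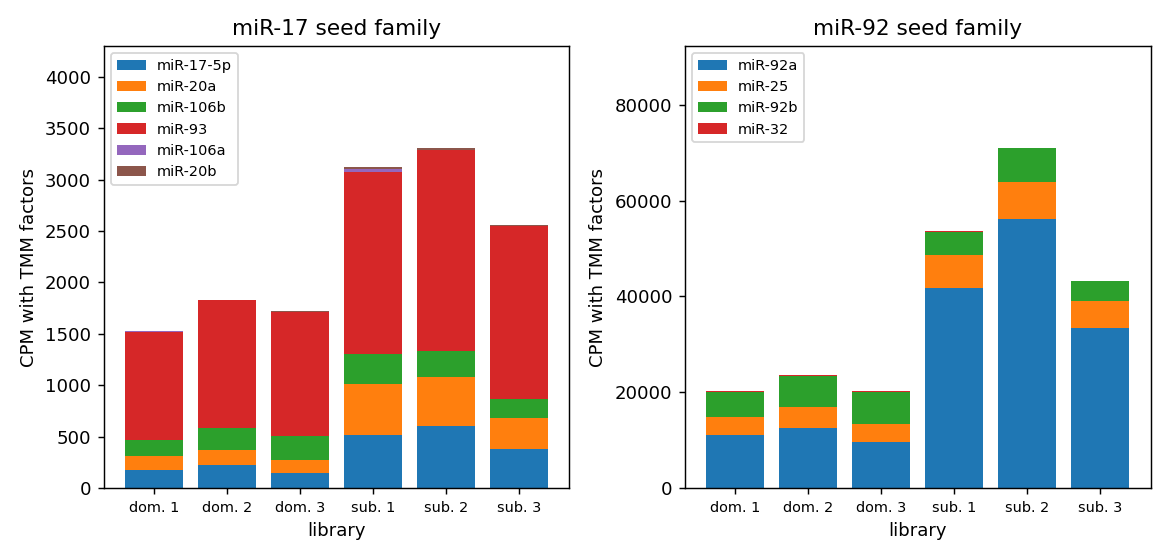
Stacked levels in CPM of the miR-17 (left) and miR-92 (right) seed families in each library. In the dominant libraries miR-92a makes up between 47.8 and 54.8% of its family and in the subordinate libraries between 77.3 and 79.1%, while miR-93 is the largest part of the miR-17 family in all 6 libraries.

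Among 126 miRNAs outside the cluster and its relatives with a mean of at least 50 reads, those whose pattern over the 6 libraries lay nearest to the mean of the members were bta-miR-6119-5p, bta-miR-423-3p, bta-miR-484, bta-miR-30c and bta-miR-660. Nearness was measured as the root mean square difference of centred log2 CPM, which was 0.06 for bta-miR-6119-5p, 0.14 for bta-miR-423-3p, 0.16 for bta-miR-484, 0.17 for bta-miR-30c and 0.26 for bta-miR-660. Among the members themselves this distance ran from 0.17 for bta-miR-19b to 0.61 for bta-miR-17-3p. Bta-miR-17-3p, bta-miR-18a and bta-miR-19a averaged fewer than the 50 reads asked of the outside miRNAs, so more counting error enters their distances. The outside miRNAs named were also picked as the nearest of 126, so their distances and those of the members are not on equal terms. Bta-miR-6119-5p had 1465 ± 92.6 CPM in dominant and 3234 ± 698 CPM in subordinate follicles (SD, n = 3 each). The other 4 had log2 fold changes between -0.85 and -0.57.

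**Figure D5:**
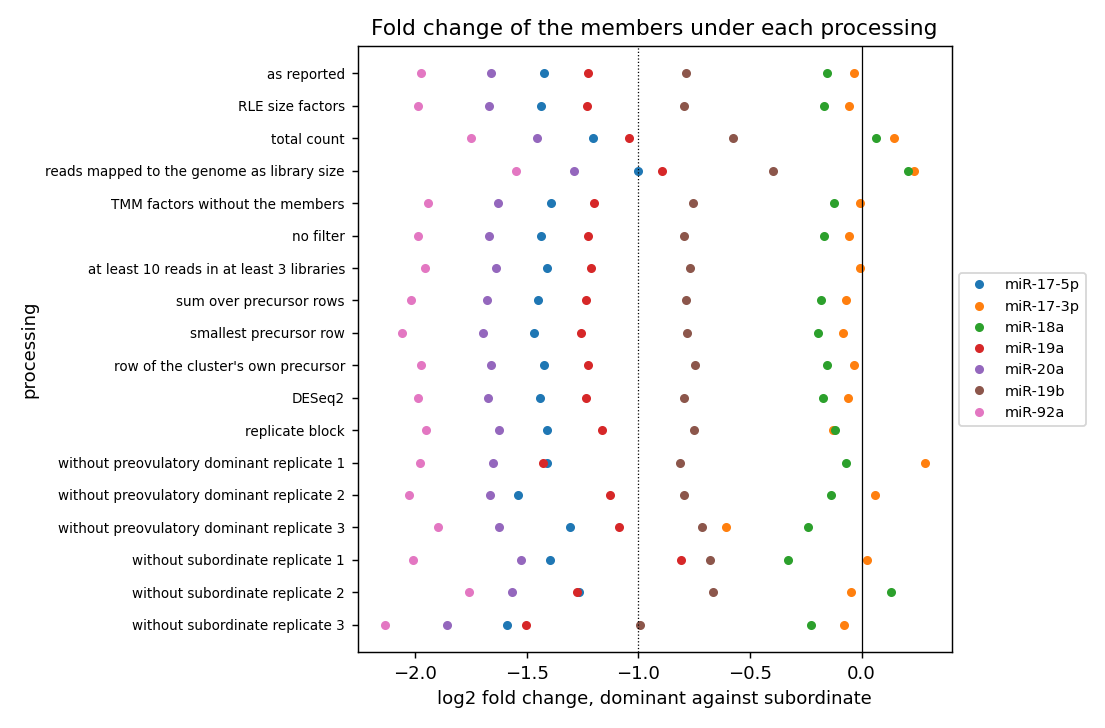
Log2 fold change of each member (horizontal axis) under each processing (vertical axis), with a dotted line at the fold threshold of -1. The order from miR-92a through miR-20a and miR-17-5p to miR-19b holds under every processing drawn, miR-19a passes miR-17-5p slightly without dominant replicate 1 or subordinate replicate 2, and miR-18a and miR-17-3p take values on either side of 0, with miR-17-3p at -0.61 without dominant replicate 3.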

How the data were processed

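Small RNA of granulosa cells was sequenced in 3 libraries per follicle type with a TruSeq kit. Adapter trimming and removal of reads below Phred 18 or 18 bases were done by the authors (Cutadapt, Seqtk), who then mapped the remaining reads to the bovine genome (UMD3.1 per the labels) with Bowtie and counted on miRBase release 20 with miRDeep2 2.0.0.5. The deposited values are raw counts per pair of mature miRNA and precursor, 906 rows for 755 names, without normalization, and groups and replicate numbers come from the labels. For the 73 names with several rows the largest was used, since a read that maps to several precursors may be counted in each.

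The 353 miRNAs detected (1 read or more) in 2 or more replicates of either group were tested by the quasi-likelihood test of edgeR 4.0.16 (R 4.3.3) with TMM factors and a model of follicle type alone. The p-values were adjusted over all 353 by Benjamini-Hochberg, and the script was tested on simulated data. Standard errors were obtained from each log2 fold change and its F statistic. Ratios used 0.5 added reads and exact two-sided permutation tests (Python 3.11.15, scipy 1.17.1). The shares within seed families were added after values had been seen. Same-numbered libraries of the 2 groups deviated together (correlations of 0.136, 0.378 and 0.408 over 194 miRNAs, each over 0.1), as did 2 differently numbered pairs (0.193 and 0.124), and by the rule of 0.1 for each same-numbered pair the replicate number was taken to pair them and a blocked fit was made. Libraries of a group differed by more than counting noise, so none was counted as a duplicate. Members, lists and tests were chosen with earlier results of these data known. Named were the members, their relatives, the markers and the 5 miRNAs nearest in pattern. Alternatives were other scalings, filters, precursor rows and thresholds, DESeq2 1.42.0, the block and each library left out. Mature sequences were not used here.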

Additional observations from a re-analysis of the deposited data

How the results depend on the processing

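With about 10 reads per library behind bta-miR-18a and bta-miR-17-3p, their intervals include a 2-fold difference either way or nearly so. Bta-miR-92a and bta-miR-20a kept direction and call under every alternative tried. With the reads mapped to the genome as library size, 2 members were called, and bta-miR-17-5p (-1.003) and bta-miR-19a (-0.89) lost their call. By total count bta-miR-19a lost it too (-1.04), as it did at an adjusted p of at most 0.05 (-1.23), and without a fold threshold bta-miR-19b (-0.79) gained one. The sign turned by total count for bta-miR-18a (0.064) and bta-miR-17-3p (0.15), and with mapped reads (0.21 and 0.23). It also turned for bta-miR-17-3p without dominant replicate 1 (0.28) or 2 (0.06) or subordinate replicate 1 (0.02), and for bta-miR-18a without subordinate replicate 2 (0.13). The cause was not tested. Leaving out 1 library gave log2 fold changes of -0.61 to 0.28 for bta-miR-17-3p, -0.33 to 0.13 for bta-miR-18a and -1.50 to -0.81 for bta-miR-19a, with 3 or 4 members called and between 54 and 78 miRNAs called in all.

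Summing precursor rows counts reads of bta-miR-92a and bta-miR-19b more than once and so lifted their shares of the cluster. In dominant follicles the shares were then 94.7% for bta-miR-92a, 3.19% for bta-miR-19b, 0.863% for bta-miR-17-5p, 0.628% for bta-miR-20a, 0.234% for bta-miR-19a and 0.150% for bta-miR-18a. In subordinate follicles they were 97.2% for bta-miR-92a, 0.602% for bta-miR-17-5p, 0.512% for bta-miR-20a, 0.061% for bta-miR-17-3p and 0.043% for bta-miR-18a. With the smallest row, the shares in dominant follicles were 92.1% for bta-miR-92a, 3.38% for bta-miR-19b, 1.84% for bta-miR-17-5p and 1.34% for bta-miR-20a, and bta-miR-17-5p had 1.28% in subordinate follicles. Other shares moved by less than 1 SD, and no ratio to bta-miR-17-5p changed sign. With the replicate number as a block, 4 members and 71 miRNAs were called, no member's call changed (bta-miR-19a -1.16), and sign flips of the 3 paired ratios cannot give a p below 0.25. Taking the row of the cluster's own precursor, an alternative chosen after seeing the data, changed no call.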
